A study of Mus musculus with 28 samples.

Results

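Retinoic acid is made from retinol inside cells and acts on genes through nuclear receptors, and 9 genes that import, make, carry, sense or degrade it were followed here in mouse embryoid bodies in which hair cell transcription factors were switched on. The 9 genes are Stra6, Aldh1a1, Aldh1a2, Aldh1a3, Cyp26a1, Cyp26b1, Cyp26c1, Rarb and Crabp2, of 19421 genes in the expression table. Stra6 was chosen by its Dox differences, which were above 0 in every line, so its own values are given as a description with no test, and the other 8 were chosen as the genes of the same pathway.

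The data are RNA-seq libraries of 7 doxycycline (Dox)-inducible mouse embryonic stem cell (mESC) lines, derived from the A2Lox parent, at day 6 of embryoid body (EB) differentiation. Each line carries a Dox-driven cassette for Venus, a yellow fluorescent protein, with Atoh1 (iAtoh1), Gfi1 (iGfi1), Pou4f3 (iPou4f3), Gfi1 and Atoh1 (iG+A), Gfi1 and Pou4f3 (iG+P), Pou4f3 and Atoh1 (iP+A) or all 3 factors (iGPA). For each line there were 2 libraries of Venus+ cells sorted after 48 h in 2 µg/ml Dox, added on day 4, and 2 libraries of unsorted EBs that received no Dox, 28 libraries in all. The series record describes the 2 replicates of a line as different clones of that line. Within a line, the induced factors, Dox itself and the sorting of Venus+ cells change together and cannot be told apart. The EBs grew in serum without leukaemia inhibitory factor, and although the study's methods name retinoic acid as a supplement of some EB cultures, the labels of these libraries name none.

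Depth estimated from the steps between low values was 30.4 to 48.0 M reads per library, and each library had 17628 to 18074 genes with a value above 0. With Dox, Atoh1 was at 12816 to 21242 normalized counts in the 8 libraries whose line carries it and at 14.3 to 32.5 in the 6 whose line does not, Gfi1 at 8119 to 12487 against 49.7 to 113, and Pou4f3 at 4694 to 19883 against 27.7 to 101, so the induced factors matched the labels in every library. The level of Pou4f3 was lowest in iPou4f3, at 4694 and 5381 with Dox. It was at 17590 and 19883 in iG+P, 12878 and 10868 in iP+A, and 13037 and 15115 in iGPA. Comparisons of iPou4f3 with iG+P or iP+A therefore also differ in the level of Pou4f3. The untreated libraries held markers of several cell types, as EBs do: the summed level of 8 pluripotency genes ran from 831 to 22581, of 10 endoderm genes from 6174 to 12587 and of 6 primitive blood genes from 66157 to 498110. In such mixed samples, fewer cells of a type and less RNA per cell cannot be told apart.

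Stra6 is a membrane receptor that takes up retinol from its plasma carrier, retinol-binding protein. The aldehyde dehydrogenases Aldh1a1, Aldh1a2 and Aldh1a3 carry out the last step of synthesis, from retinaldehyde to retinoic acid, and Crabp2 carries retinoic acid towards its nuclear receptors, of which Rarb is one. Cyp26a1, Cyp26b1 and Cyp26c1 are cytochrome P450 enzymes that degrade retinoic acid, and in embryos the boundaries between cells that make it and cells that degrade it pattern the hindbrain, the somites and the inner ear. Rarb and Cyp26a1 are textbook direct targets of retinoic acid, bound by its receptors at paired half-sites in their promoters.

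The promoters of these targets are shown because they hold a receptor site that can be set beside their levels below. RefSeq promoter entries (250 bases before to 50 after the start, build GRCm38.p6) matched 7 of the 9 genes with 11 promoters, and DR5, the direct repeat of the retinoic acid receptor half-site with a spacer of 5 bases, was searched for on both strands. It was found in the promoters of Rarb (at -53 to -37 from the start, on the gene's strand) and Cyp26a1 (at -32 to -16, on the other strand), and 0.0974% of 32851 promoters of this length hold it. The 4 promoters of Stra6 and those of Aldh1a1, Aldh1a2, Cyp26b1 and Cyp26c1 held neither this repeat nor one with a spacer of 2 or 1 bases, which together with it occur in 0.588% of promoters. The capitals mark the repeat with a spacer of 5 bases in Rarb (chr14:16575427-16575726, minus strand) and Cyp26a1 (chr19:37697558-37697857, plus strand), each written 5′ to 3′ on the gene's strand.
Rarb: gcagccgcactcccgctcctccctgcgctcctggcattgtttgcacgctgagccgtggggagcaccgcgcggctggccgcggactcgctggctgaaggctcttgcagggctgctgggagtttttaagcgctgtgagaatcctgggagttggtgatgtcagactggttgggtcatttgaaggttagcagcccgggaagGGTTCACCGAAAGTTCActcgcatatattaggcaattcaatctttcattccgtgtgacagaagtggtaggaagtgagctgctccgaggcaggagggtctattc
Cyp26a1: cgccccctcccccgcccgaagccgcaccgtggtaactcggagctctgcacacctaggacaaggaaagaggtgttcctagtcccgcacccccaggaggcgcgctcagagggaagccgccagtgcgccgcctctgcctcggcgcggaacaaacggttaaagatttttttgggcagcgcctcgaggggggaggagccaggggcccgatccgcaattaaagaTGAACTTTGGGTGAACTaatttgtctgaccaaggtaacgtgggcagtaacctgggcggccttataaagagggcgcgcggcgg

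Stra6 (chr9:57911595-58001803 on build NCBIM37, plus strand) was low in all untreated EBs, at 6.12 to 23.3 normalized counts over 14 libraries with a median of 14, and both Dox libraries lay above both untreated libraries in all 7 lines, an order that 2.22% of all genes tested showed. In iAtoh1 it was at 19.01 and 13.8 without Dox and 529.9 and 566 with Dox, a log2 difference of 4.99 on the scale of log2(normalized count + 1). In iGfi1 it was at 16.2 and 11.9 without Dox and 572 and 345 with Dox, a log2 difference of 4.90. These lines reached like levels, since the Dox libraries of iAtoh1 lie within the range of those of iGfi1. In iPou4f3 Stra6 was at 6.12 and 11.97 without Dox and 31.8 and 35.3 with Dox, a log2 difference of 1.85 and the smallest of the 7. The untreated iPou4f3 library of replicate 1 was the lowest of the 14, and over all alternatives, leaving out each library among them, the iPou4f3 difference ran from 1.26 to 2.28.

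The lines with several factors spread further. In iG+A Stra6 was at 8.80 and 18.2 without Dox and 1419 and 2546 with Dox, a log2 difference of 7.11. In iGPA it was at 14.2 and 14.9 without Dox and 1719 and 1968 with Dox, a log2 difference of 6.89. Both iGPA Dox libraries lie between the 2 iG+A Dox libraries, so these lines did not differ beyond the spread of their replicates. In iG+P it was at 23.3 and 19.6 without Dox and 1639 and 786 with Dox, a log2 difference of 5.67, with replicate 1 inside the range of iG+A and replicate 2 below it. In iP+A, the only combination without Gfi1, it was at 9.10 and 10.97 without Dox and 135 and 118 with Dox, a log2 difference of 3.53. By mean level with Dox (mean ± SD, n = 2) the order was iPou4f3 (33.6 ± 2.43), iP+A (127 ± 12.5), iGfi1 (458 ± 161), iAtoh1 (548 ± 25.2), iG+P (1213 ± 603), iGPA (1844 ± 176) and iG+A (1982 ± 797).

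**Figure D1:**
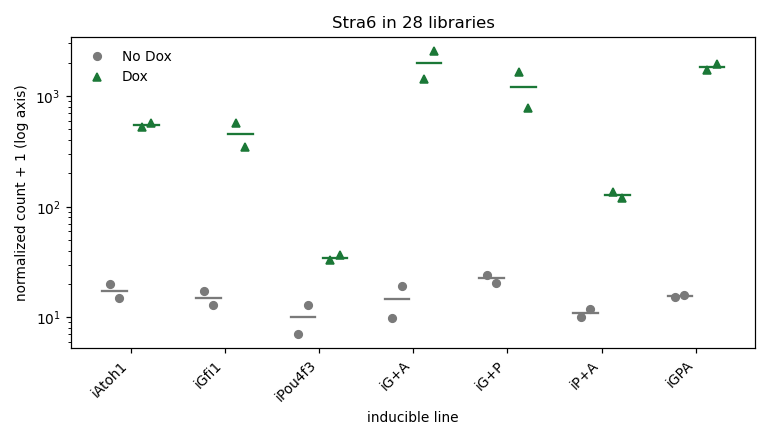
Stra6 in each of the 28 libraries, as the normalized count plus 1 on a log axis, by inducible line, with grey circles for No Dox, green triangles for Dox and bars for the mean of 2 libraries. The Dox libraries lie above the No Dox libraries in all 7 lines, from 31.8 and 35.3 in iPou4f3 to 1419 and 2546 in iG+A.

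Among the 16837 genes tested, Stra6 had rank 13 by the mean of its 7 Dox differences (4.99) and rank 9 by the smallest of them (1.85), which restates how Stra6 was chosen and is no test. The threshold used for the other genes is an adjusted p under 0.05 with a log2 difference of at least 1.5 in either direction.

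The difference between the Dox effects of lines that differ by 1 factor shows where the Stra6 levels part. With Gfi1 added, the log2 Dox difference of Stra6 was larger by 2.12 from iAtoh1 to iG+A, by 3.82 from iPou4f3 to iG+P and by 3.35 from iP+A to iGPA. With Atoh1 added it was larger by 2.22 (iG+A less iGfi1), 1.69 (iP+A less iPou4f3) and 1.22 (iGPA less iG+P). With Pou4f3 added it changed by -1.46 (iP+A less iAtoh1), 0.77 (iG+P less iGfi1) and -0.23 (iGPA less iG+A). The averages over these backgrounds were 3.10 for Gfi1, 1.71 for Atoh1 and -0.31 for Pou4f3, and each line enters several of the 9 differences. Those with iPou4f3 also differ in the level of Pou4f3 itself, which was lower in iPou4f3 with Dox.

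The genes whose pattern over the 28 libraries was most like that of Stra6, by the root mean square difference of log2 values centred on each gene's mean, were Dll3, a Notch ligand (1.00), Kcnj12, a potassium channel (1.03), Prmt8, an arginine methyltransferase (1.05), Btbd17 (1.10) and A930003A15Rik (1.13). The median over all genes tested was 2.91. Over the 7 Dox differences alone, the nearest genes were Kcnj12 (1.02), Dll3 (1.33), Rtl5 (1.39), Foxo6 (1.51) and Btbd17 (1.52), against a median of 5.29. All of these points share the same libraries. Ccdc33, which overlaps the annotated Stra6 gene on the opposite strand with 0 exonic bases in common, was at 1.08 to 20.9 normalized counts without Dox and at 5.80 to 61.6 with Dox, and how strand was counted is not given in the sources used here. Gm16131, a processed transcript on the same strand as Stra6, also overlaps it with 0 exonic bases in common, and its level is not given here.

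Of the 8 other members, each tested in 7 lines, 10 of 56 Dox differences passed the threshold, 8 upward and 2 downward. Aldh1a2 and Aldh1a3 gave 2 upward calls each, all in lines with Gfi1, and the call of Aldh1a1 rests on fewer than 10 normalized counts in each library. The degrading enzymes gave 2 upward and 2 downward calls, Crabp2 gave 1 upward call, and the receptor Rarb passed in no line. Of the 8 members, 3 passed in iG+A (where 12.3% of all genes tested passed in either direction), 2 in iG+P (10.5%), 2 in iAtoh1 (5.4%) and 1 each in iGfi1 (4.82%), iPou4f3 (2.08%) and iGPA (14%). In iP+A limma called 0 of 8 (7.29%), and 5 of the 8 had an unadjusted p under 0.05. With 8 genes per line, each call is a large share, so these counts say little against the background.

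**Figure D2:**
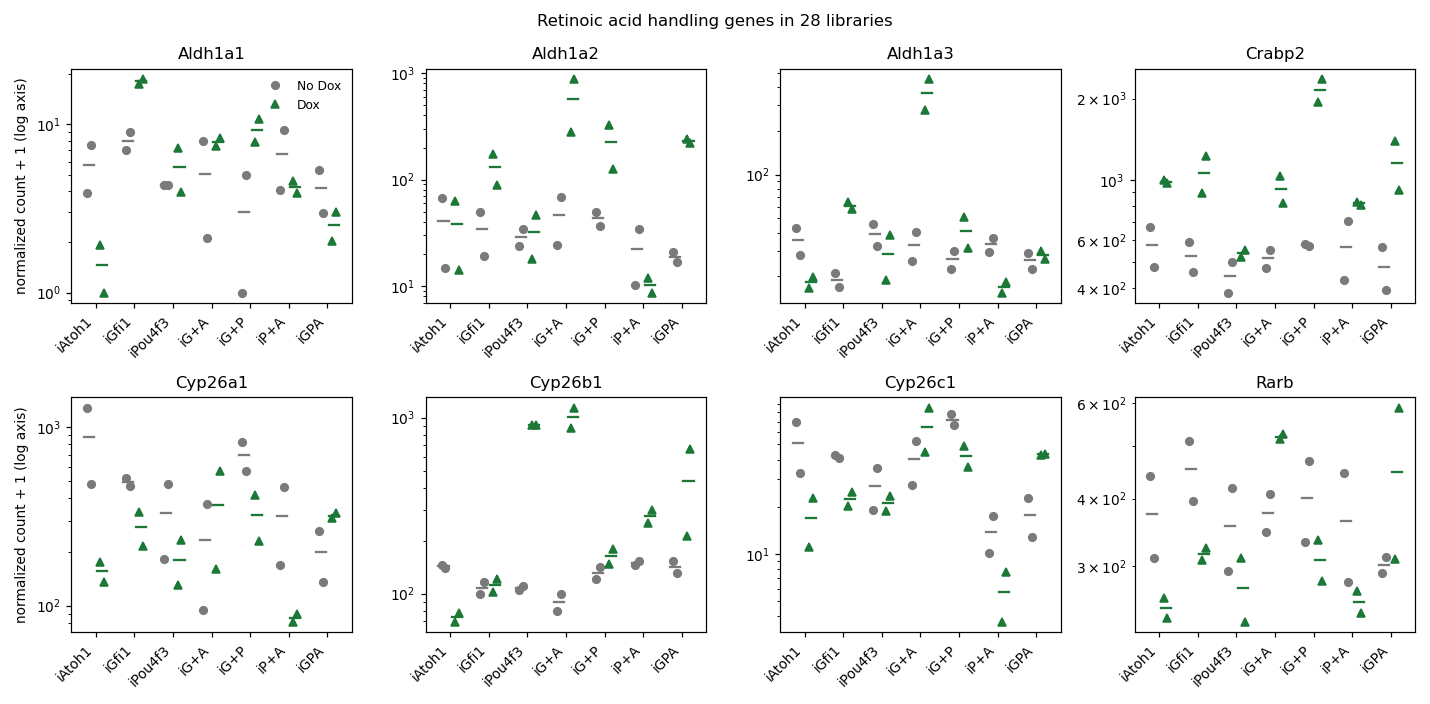
The 8 other genes in each of the 28 libraries, as the normalized count plus 1 on log axes that differ between panels, by inducible line, with grey circles for No Dox, green triangles for Dox and bars for the mean of 2 libraries. Cyp26b1 stands apart in iPou4f3 and iG+A with Dox, Aldh1a3 in iG+A, and Crabp2 lies higher with Dox in all 7 lines, while Aldh1a1 stays under 18 normalized counts in every library.

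Aldh1a2 (chr9:71063596-71144050, plus strand), the main retinoic acid synthesising enzyme of early mesoderm, rose in iG+A and iGPA. In iG+A it was at 23.2 and 67.2 without Dox and 277 and 875 with Dox, a log2 difference of 3.60 (SE 0.85, adjusted p = 0.00241). The iGPA libraries were at 20.1 and 15.7 without Dox and 242 and 219 with Dox, a log2 difference of 3.62 (SE 0.85, adjusted p = 0.00188). In both lines every Dox library lay above every untreated one, and the iG+A replicates differed more than those of iGPA, so that the iG+A value ran from 2.77 without Dox replicate 2 to 4.43 without Dox replicate 1. The iGfi1 libraries were at 48.9 and 18.00 without Dox and 174 and 88.7 with Dox, a difference of 2.02 (SE 0.85, adjusted p = 0.0866) that passed only with the replicate number as a block (adjusted p = 0.0044) or against all untreated libraries together (adjusted p = 0.0135). The iG+P libraries were at 49.04 and 36.1 without Dox and 324 and 125 with Dox, a difference of 2.23 (SE 0.85) whose adjusted p of 0.05001 missed the limit and was 0.00172 with the block. All 4 lines with Gfi1 thus had both Dox libraries above both untreated libraries, an order that 34.6% of all genes showed in iGfi1, 32.6% in iG+A, 34.2% in iG+P and 37.7% in iGPA.

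The lines without Gfi1 gave small values for Aldh1a2. The iAtoh1 libraries were at 65.5 and 13.9 without Dox and 62.2 and 13.2 with Dox, so that replicate 1 was high and replicate 2 low in both conditions. In iPou4f3 it was at 22.6 and 33.5 without Dox and 16.9 and 46.02 with Dox, and in iP+A at 9.15 and 33.1 without Dox and 10.9 and 7.69 with Dox. Their log2 differences were -0.07 (SE 0.85, adjusted p = 0.966), 0.03 (SE 0.85, adjusted p = 0.993) and -0.87 (SE 0.85, adjusted p = 0.494), with 95% intervals of -1.85 to 1.71, -1.75 to 1.81 and -2.65 to 0.91, wide enough to hold sizeable changes in either direction. The difference on adding Gfi1, averaged over the 3 backgrounds, was itself past the threshold at 3.46 (SE 0.69, adjusted p = 0.000747). Of 8 listed markers of nascent and paraxial mesoderm, 5 rose in iGPA (8.65% of all genes tested rose there), 4 in iG+P (5.16%), 4 in iG+A (7.35%) and 3 in iGfi1 (2.15%). In the lines without Gfi1, 1 rose in iP+A (4.7%), 1 in iAtoh1 (2.89%) and 0 in iPou4f3 by limma (1.47%, with 0 at an unadjusted p under 0.05), and their summed level with Dox was 1667 to 6941 in the lines with Gfi1 and 647 to 1843 in the others. Foxc1, a paraxial mesoderm factor, rose in the 4 lines with Gfi1, by 5.39 on the log2 scale in iGPA, and also in iAtoh1 by 1.56, and Tcf15, a somite factor, rose in the 4 lines with Gfi1, by 3.46 in iGPA, and also in iP+A by 2.09. The other calls were of Foxc2, Meox1 and Msgn1. The nascent mesoderm markers T and Mesp1, and Tbx6, passed the threshold in no line. The part of such cells in the Aldh1a2 result was not tested.

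Aldh1a3 (chr7:73535778-73572403, minus strand), a synthesising enzyme known from sensory epithelia of eye, nose and ear, had its highest levels in iG+A. There it was at 24.4 and 39.2 without Dox and 278 and 450.2 with Dox, a log2 difference of 3.47 (SE 0.38, adjusted p = 1.28e-06). In iGfi1 it was at 19.97 and 16.00 without Dox and 63.8 and 56.7 with Dox, a difference of 1.70 (SE 0.38, adjusted p = 0.0033), which was 1.07, under the size limit, against all untreated libraries together. The untreated iGfi1 libraries were the lowest of the 14. With Pou4f3 beside Gfi1 no change was called: in iGPA Aldh1a3 was at 27.97 and 21.6 without Dox and 28.7 and 25.2 with Dox, a difference of 0.12 (SE 0.38, adjusted p = 0.82) whose ranges overlap. In iG+P it was at 21.5 and 29.1 without Dox and 50.02 and 30.4 with Dox, a difference of 0.62 (SE 0.38, adjusted p = 0.231).

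Outside those lines Aldh1a3 was lower with Dox or overlapped, without a call. Both Dox libraries lay below in iAtoh1 and iP+A, as for 30.6% and 34% of all genes tested there. In iAtoh1 it was at 42.03 and 26.9 without Dox and 15.5 and 18.9 with Dox (-0.93, SE 0.38, adjusted p = 0.0873). In iP+A it was at 28.5 and 35.9 without Dox and 14.5 and 17.3 with Dox (-0.97, SE 0.38, adjusted p = 0.0729). In iPou4f3 it was at 45.1 and 31.3 without Dox and 17.8 and 37.2 with Dox (-0.53, SE 0.38, adjusted p = 0.516), where the ranges overlap. The Dox effect of iG+A exceeded that of iAtoh1 by 4.41 (SE 0.54, adjusted p = 2.88e-05) and that of iGfi1 by 1.78 (SE 0.54, adjusted p = 0.0213), and the Dox effect of iGPA was below that of iG+A by a log2 difference of -3.35 (SE 0.54, adjusted p = 0.000955). Of these, the excess over iGfi1 lost its call without any one of iGfi1 No Dox replicate 1 (1.63), iGfi1 Dox replicate 2 (1.69), iG+A No Dox replicate 1 (1.45) or iG+A Dox replicate 2 (1.43), and the other two kept theirs in every alternative.

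Aldh1a1 (chr19:20676451-20717952, plus strand), the synthesising enzyme of the dorsal retina, was close to the limit of detection, at 0 to 17.5 normalized counts over the 28 libraries. It passed the filter on low values only through both iGfi1 Dox libraries, which were its highest at 16.4 and 17.5, against 5.99 and 8.002 without Dox (1.18, SE 0.71, adjusted p = 0.236). In iG+P it was at 0 and 4.01 without Dox and 6.87 and 9.76 with Dox and rose by 2.04 (SE 0.71, adjusted p = 0.0338), a call lost without iG+P No Dox replicate 1 (0.88), Dox replicate 1 (2.27) or Dox replicate 2 (1.81), with a pseudocount of 5 (0.98), against all untreated libraries together (1.01) and with only the groups compared in the fit (adjusted p = 0.139), and the size of the difference depends on the pseudocount because 1 library is at 0. The iAtoh1 libraries were at 2.93 and 6.52 without Dox and 0.914 and 0 with Dox (-1.97, SE 0.71, adjusted p = 0.053), so the Dox libraries were the lower ones, as for 30.6% of all genes tested. The remaining lines stayed under 10 normalized counts: iPou4f3 at 3.38 and 3.35 without Dox and 6.23 and 2.94 with Dox, iG+A at 6.96 and 1.12 without Dox and 6.39 and 7.32 with Dox. In iP+A it was at 3.05 and 8.28 without Dox and 3.62 and 2.89 with Dox, and in iGPA at 4.37 and 1.97 without Dox and 1.02 and 2.02 with Dox. The differences in these 4 lines were 0.29, 0.93, -0.53 and -0.69, none past the threshold.

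Crabp2 (chr3:87752588-87757298, plus strand) was the member, besides Stra6, whose Dox libraries lay above the untreated ones in all 7 lines, as they did for 2.22% of all genes tested, and it passed the threshold in iG+P alone. There it was at 582 and 568 without Dox and 1946 and 2356 with Dox, a log2 difference of 1.90 (SE 0.25, adjusted p = 1.3e-05). In iGPA it was at 566 and 390.0 without Dox and 1395 and 918 with Dox (1.27, SE 0.25, adjusted p = 0.000504). The iGfi1 libraries were at 589.9 and 457 without Dox and 895 and 1229.6 with Dox (1.01, SE 0.25, adjusted p = 0.00674). These differences, like those of iG+A and iAtoh1, had an adjusted p under 0.05 but were smaller than 1.5. The iG+A libraries were at 473 and 552 without Dox and 1036 and 819 with Dox (0.85, SE 0.25, adjusted p = 0.0124). In iAtoh1 it was at 671 and 478 without Dox and 996 and 975 with Dox (0.80, SE 0.25, adjusted p = 0.03). The smallest differences were in iP+A and iPou4f3. In iP+A Crabp2 was at 426 and 705 without Dox and 827 and 809.7 with Dox (0.58, SE 0.25, adjusted p = 0.106). The iPou4f3 libraries were at 383 and 497 without Dox and 518 and 551 with Dox (0.29, SE 0.25, adjusted p = 0.602), and the Dox effect of iG+P exceeded it by 1.603 (SE 0.36, adjusted p = 0.00453), a call lost without iPou4f3 No Dox replicate 2 (1.41) or iG+P Dox replicate 2 (1.46), where the difference was under 1.5. With Dox, Pou4f3 itself was also lower in iPou4f3 than in iG+P.

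Rarb (chr14:17263356-17651381, minus strand), the receptor whose promoter is shown above, kept to a narrow range of 280 to 509.7 normalized counts without Dox and 236 to 586 with Dox. It passed in 0 of 7 lines by limma, and in 0 of 7 was its unadjusted p under 0.05. Its differences were negative in iAtoh1 at -0.56 (SE 0.28, adjusted p = 0.16), in iGfi1 at -0.51 (SE 0.28, adjusted p = 0.189), in iP+A at -0.46 (SE 0.28, adjusted p = 0.252), in iPou4f3 at -0.37 (SE 0.28, adjusted p = 0.53) and in iG+P at -0.36 (SE 0.28, adjusted p = 0.349). They were positive in iG+A at 0.47 (SE 0.28, adjusted p = 0.191) and in iGPA at 0.50 (SE 0.28, adjusted p = 0.154). Both positive values are of lines with Gfi1 and Atoh1 together, and no 95% interval of the 7 reached 1.5 in either direction, the widest bounds being -1.15 in iAtoh1 and 1.09 in iGPA.

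Rarb by library showed mostly small steps. The iAtoh1 libraries were at 439 and 309.9 without Dox and 261 and 239 with Dox. In iGfi1 it was at 509.7 and 395 without Dox and 307 and 323 with Dox. Both of these lines, and iP+A, had the Dox libraries below the untreated ones. That order was shown by 30.6% of all genes tested in iAtoh1, 32.5% in iGfi1 and 34% in iP+A. In iP+A Rarb was at 445 and 279.8 without Dox and 269 and 245 with Dox. In iG+A it was at 346 and 406 without Dox and 514 and 524 with Dox, the only line with both Dox libraries above, as for 32.6% of all genes tested there. The ranges overlapped in the other lines. In iPou4f3 it was at 293 and 418 without Dox and 309 and 236 with Dox. The iG+P libraries were at 332 and 468 without Dox and 335 and 281 with Dox. The iGPA libraries were at 290.0 and 312 without Dox and 309 and 586 with Dox, where replicate 2 alone was high with Dox.

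Cyp26b1 (chr6:84521938-84543740, minus strand), the degrading enzyme known from the hindbrain, limb and inner ear, had the clearest line-specific pattern of the degrading enzymes. The iPou4f3 libraries were at 104 and 109 without Dox and 909 and 904 with Dox, a log2 difference of 3.08 (SE 0.33, adjusted p = 9.13e-06). The iG+A libraries were at 78.3 and 98.1 without Dox and 874 and 1131 with Dox, a difference of 3.49 (SE 0.33, adjusted p = 1.95e-07). The replicates stood close together and far above the untreated libraries, which ran from 78.3 to 152 over all lines, and these calls held in every alternative, with values of 2.89 to 3.12 in iPou4f3 and 3.03 to 3.67 in iG+A. In iGPA, which carries the factors of both, it was at 152 and 129.5 without Dox and 213 and 663 with Dox, a difference of 1.41 (SE 0.33, adjusted p = 0.00166) under the size limit and with replicates that stood far apart, which was 2.23 without Dox replicate 1 and 0.60 without Dox replicate 2.

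The other lines showed small Cyp26b1 differences. The iP+A libraries were at 145 and 152 without Dox and 252 and 298 with Dox (0.88, SE 0.33, adjusted p = 0.056). In iG+P it was at 119.6 and 141 without Dox and 147 and 178 with Dox (0.32, SE 0.33, adjusted p = 0.495). The iGfi1 libraries were at 97.98 and 116 without Dox and 101 and 119.6 with Dox (0.04, SE 0.33, adjusted p = 0.941). In iAtoh1, where the Dox libraries were the lower ones, as for 30.6% of all genes tested, it was at 145 and 138 without Dox and 68.5 and 76.8 with Dox (-0.96, SE 0.33, adjusted p = 0.0406), short of the size limit. Adding Gfi1 or Atoh1 to Pou4f3 went with a smaller Dox effect: the effect of iG+P was below that of iPou4f3 by a log2 difference of -2.76 (SE 0.46, adjusted p = 0.000437) and that of iP+A by one of -2.20 (SE 0.46, adjusted p = 0.0109). With Dox, Pou4f3 itself was lower in iPou4f3 (4694 and 5381 normalized counts) than in iG+P or iP+A. The part of that level in these differences was not tested. Gfi1 and Atoh1 together went with a larger effect than either alone, by 4.45 (SE 0.46, adjusted p = 5.79e-06) against iAtoh1 and by 3.45 (SE 0.46, adjusted p = 6.06e-05) against iGfi1. The effect of iP+A was lower than that of iPou4f3 in every alternative, and its call was lost without iP+A Dox replicate 1 (-2.08).

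As averages over the backgrounds, these opposite changes left 0.74 (SE 0.27, adjusted p = 0.0383) for adding Gfi1, 0.78 (SE 0.27, adjusted p = 0.0326) for Atoh1 and 0.01 (SE 0.27, adjusted p = 0.986) for Pou4f3, none past the size limit. For Cyp26b1 the average over backgrounds thus hides single differences of both signs, which the plot of added factors shows.

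**Figure D3:**
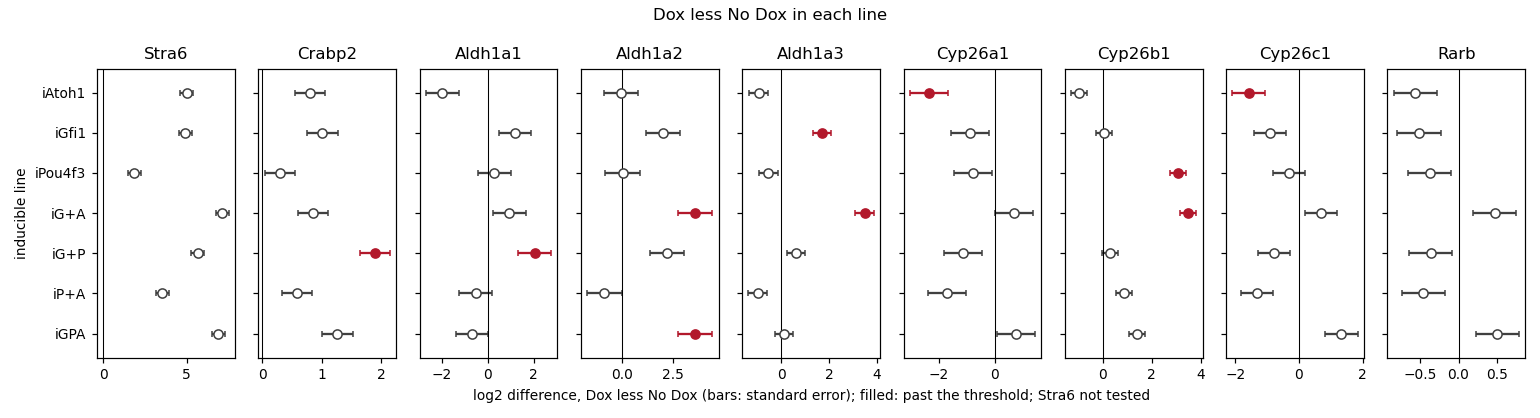
The log2 difference between Dox and No Dox for the 9 genes in each of the 7 lines, with bars for the standard error and filled red points for those past the threshold, on axes that differ between panels. Stra6, which was not tested, lies to the right of 0 in every line, Cyp26b1 is past the threshold in iPou4f3 and iG+A, and Rarb stays within 0.56 of 0.

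Cyp26a1 (chr19:37772298-37776018, plus strand), the degrading enzyme that retinoic acid itself induces, fell in iAtoh1, where it was at 1277 and 479.8 without Dox and 174 and 135 with Dox, a log2 difference of -2.34 (SE 0.68, adjusted p = 0.0187). The call was lost without iAtoh1 No Dox replicate 1 (-1.64), Dox replicate 1 (-2.52) or Dox replicate 2 (-2.16), with only the groups compared in the fit (adjusted p = 0.0591), and against all untreated libraries together (-1.21). Untreated iAtoh1 replicate 1 was the highest of the 28 libraries. In iP+A it was at 167 and 463 without Dox and 80.5 and 88.3 with Dox, a difference of -1.71 (SE 0.68, adjusted p = 0.075) with an adjusted p of 0.00259 under the replicate block. In both lines the Dox libraries were the lower ones, as they were in iGfi1 and iG+P. In iGfi1 it was at 516 and 465 without Dox and 335 and 214 with Dox (-0.87, SE 0.68, adjusted p = 0.369). The iG+P libraries were at 823 and 564 without Dox and 417 and 228 with Dox (-1.14, SE 0.68, adjusted p = 0.217). The remaining lines were not called. In iPou4f3 it was at 181 and 480.2 without Dox and 129 and 232 with Dox (-0.77, SE 0.68, adjusted p = 0.613). In iG+A it was at 94.00 and 369 without Dox and 161 and 566 with Dox (0.69, SE 0.68, adjusted p = 0.442). In iGPA it was at 260.3 and 136 without Dox and 308 and 329 with Dox (0.76, SE 0.68, adjusted p = 0.389), and only there did both Dox libraries lie above, as for 37.7% of all genes tested in iGPA.

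Cyp26c1 (chr19:37760071-37767888, plus strand) lies next to Cyp26a1 on chromosome 19, with 4409 bases and 0 annotated genes between them. It fell in iAtoh1, where it was at 68.4 and 31.8 without Dox and 10.1 and 21.8 with Dox, a log2 difference of -1.59 (SE 0.51, adjusted p = 0.0307). That call was lost without iAtoh1 No Dox replicate 1 (-1.05) or Dox replicate 1 (-1.07), with a pseudocount of 5 (-1.37), against all untreated libraries together (-1.002, adjusted p = 0.195) and with only the groups compared in the fit (adjusted p = 0.162). The iP+A libraries were at 9.16 and 16.5 without Dox and 2.72 and 6.73 with Dox (-1.32, SE 0.51, adjusted p = 0.0665), its lowest level of any line. In iGfi1 it was at 42.01 and 40.03 without Dox and 19.3 and 23.7 with Dox (-0.91, SE 0.51, adjusted p = 0.201) and in iG+P at 76.7 and 65.2 without Dox and 48.1 and 34.7 with Dox (-0.78, SE 0.51, adjusted p = 0.263), so the 4 lines with both Dox libraries below the untreated ones are the same as for Cyp26a1, and 30.6% of all genes showed that order in iAtoh1, 32.5% in iGfi1, 34.1% in iG+P and 34% in iP+A. In iGPA it was at 21.8 and 11.8 without Dox and 41.95 and 42.4 with Dox, and its difference of 1.34 (SE 0.51, adjusted p = 0.0391) was under the size limit. The ranges overlapped in iG+A, at 26.7 and 51.6 without Dox and 43.6 and 84.2 with Dox (0.69, SE 0.51, adjusted p = 0.293), and in iPou4f3, at 18.1 and 34.6 without Dox and 17.8 and 22.5 with Dox (-0.31, SE 0.51, adjusted p = 0.81).

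Pluripotent cells also express Cyp26a1, and the summed level of the 8 pluripotency markers ran from 831 to 22581 in untreated libraries and from 655 to 4389.5 in Dox libraries. In iAtoh1, where both genes fell, this sum was 8116 to 14681 without Dox and 2194 to 4389.5 with Dox, and 0 of the 8 markers passed the threshold there by limma (2.52% of all genes tested fell), although all 8 were lower (-1.43 to -2.16 on the log2 scale) and 5 had an unadjusted p under 0.05. In iP+A, where Cyp26a1 was also lower with Dox, 6 of 8 fell (2.58% of all genes tested fell there), and in iG+P 2 fell (5.36%). In iGPA and iG+A, where the Cyp26a1 differences were above 0, 4 each fell (5.31% and 4.95%), and limma called 0 in iGfi1 (2.67%, with 1 at an unadjusted p under 0.05) and 0 in iPou4f3 (0.606%, with 2). The part of pluripotent cells in the results for Cyp26a1 and Cyp26c1 was not tested.

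The test of what each added factor did, averaged over its 3 backgrounds, called 3 of the 8 members for Gfi1, where 7.91% of all genes passed in either direction. These were Aldh1a2 at 3.46 (SE 0.69, adjusted p = 0.000747), Aldh1a3 at 2.22 (SE 0.31, adjusted p = 2.48e-05) and Cyp26a1 at 1.71 (SE 0.56, adjusted p = 0.0233), as averages. The Aldh1a3 average was carried by iAtoh1 to iG+A (4.41), with 1.15 from iPou4f3 to iG+P and 1.09 from iP+A to iGPA, both short of the threshold, and for Aldh1a2 the value from iPou4f3 to iG+P (2.20) was not called. For Cyp26a1 the backgrounds parted: the Dox effect was larger with Gfi1 by 3.03 from iAtoh1 to iG+A past the threshold, while the differences from iP+A to iGPA, of 2.47 (SE 0.96, adjusted p = 0.0826), and from iPou4f3 to iG+P, of -0.38 (SE 0.96, adjusted p = 0.84), were not called. Aldh1a2 and Aldh1a3 kept their calls in all alternatives, and Cyp26a1 lost its call without any one of 6 libraries (iAtoh1 No Dox replicate 1, iPou4f3 No Dox replicate 2, iPou4f3 Dox replicate 1, iG+A No Dox replicate 1, iG+A Dox replicate 2 or iP+A No Dox replicate 2), with values of 1.38 to 1.57. Cyp26a1 itself did not rise with Dox past the threshold in any line by limma. Cyp26c1 reached 1.49 (SE 0.42, adjusted p = 0.00936), just short of the size limit.

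Adding Atoh1 called 0 of the 8 members by limma (5.13% of all genes passed), with 4 at an unadjusted p under 0.05, and adding Pou4f3 called 0 (2.72%), with 1. For Pou4f3 the nearest was Aldh1a3 at -1.49 (SE 0.31, adjusted p = 0.00408), just under the size limit. Of the single differences, 5 of 8 members passed from iAtoh1 to iG+A (6.87% of all genes did), 2 from iPou4f3 to iG+P (7.63%), 2 from iP+A to iGPA (7.6%), 2 from iGfi1 to iG+A (8.54%), 2 from iG+A to iGPA (2.2%), 1 from iPou4f3 to iP+A (1.61%) and 1 from iAtoh1 to iP+A (2.78%). None passed from iG+P to iGPA (5.9%, with 4 members at an unadjusted p under 0.05) or from iGfi1 to iG+P (1.85%, with 1), and Rarb and Aldh1a1 passed in no single difference. The lines enter several of these differences each, so the calls are not independent of one another.

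**Figure D4:**
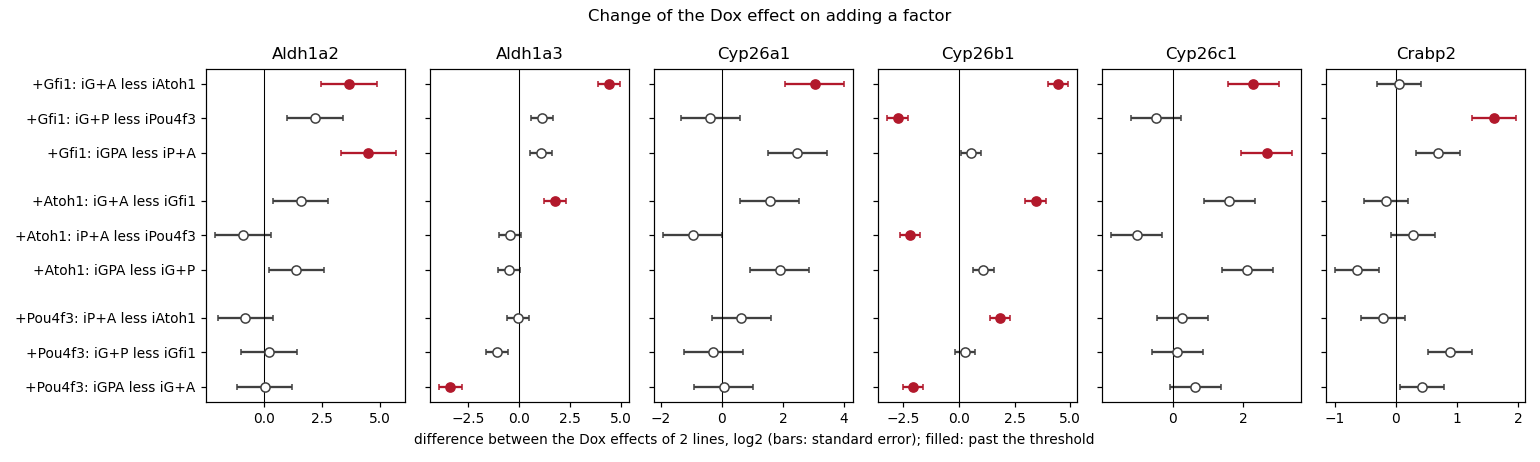
Differences between the Dox effects of lines that differ by 1 factor, for 6 genes, on the log2 scale, with bars for the standard error and filled red points for those past the threshold, on axes that differ between panels. Adding Gfi1 to Atoh1 gave the larger Aldh1a2, Aldh1a3, Cyp26a1, Cyp26b1 and Cyp26c1 effects in iG+A, and the Cyp26b1 points lie on both sides of 0.

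Without Dox the 7 lines could differ already. Of the 8 members only Cyp26c1 differed between untreated lines (limma's moderated F test, adjusted p = 0.0271, where 12.1% of all genes did), from 9.16 and 16.5 in iP+A to 76.7 and 65.2 in iG+P. The call was lost without any one of iG+P No Dox replicate 1, iG+P No Dox replicate 2, iP+A No Dox replicate 1 or iGPA No Dox replicate 2. Cyp26a1 varied widely, from 94.00 and 369 in iG+A to 1277 and 479.8 in iAtoh1, but with an adjusted p of 0.114. The untreated levels of Crabp2, Rarb and Cyp26b1 stayed within 1.94-fold of one another over the 14 libraries.

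A wider list of 61 genes of the pathway, written with the members known, places them among their partners. Of these, 57 passed the filter on low values (Rbp2, Dhrs9, Adh7 and Stra8 did not). Among the single-factor lines, 6 rose and 5 fell in iAtoh1 (2.89% and 2.52% of all genes tested did), 3 rose and 7 fell in iGfi1 (2.15% and 2.67%), and 1 rose and 1 fell in iPou4f3 (1.47% and 0.606%). Among the combinations, 5 rose and 10 fell in iGPA (8.65% and 5.31%), 4 rose and 3 fell in iP+A (4.7% and 2.58%), 4 rose and 11 fell in iG+P (5.16% and 5.36%), and 6 rose and 7 fell in iG+A (7.35% and 4.95%). The median log2 difference of the list lay between -0.15 in iGfi1 and 0.18 in iAtoh1, beside medians of -0.03 to 0.02 over all genes, with members past the threshold in both directions in every line.

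Rbp4, the plasma carrier of retinol that Stra6 binds, fell in 6 lines, from 179.6 to 1306 normalized counts without Dox (median 696) to 26.9 to 350.3 with Dox (median 138). Its largest decrease was in iGPA, where it was at 485 and 363 without Dox and 26.9 and 47.9 with Dox, a log2 difference of -3.51 (SE 0.46, adjusted p = 5.81e-06). In iP+A, the line without a call, it was at 761 and 780.2 without Dox and 315 and 290.0 with Dox. It was thus lower there too, by a log2 difference of -1.35 that was under the size limit. Ttr, the partner of Rbp4 in plasma, fell in 5 lines and by most in iG+A, where it was at 211 and 817 without Dox and 30.8 and 19.5 with Dox (-4.03, SE 0.67, adjusted p = 0.000117). Apob, the protein of lipoproteins that carry retinyl esters, fell in iAtoh1, iGfi1, iG+A and iGPA. Lrp2, an endocytic receptor for Rbp4, fell in 4 lines, in iGPA from 3079.7 and 4467 to 143 and 305 (-4.14, SE 0.60, adjusted p = 2.07e-05). Lrp1, which takes up retinyl ester remnants, fell in iGfi1, iG+P and iGPA. In the group of uptake, binding and storage, 12 genes were tested and 6 each fell in iGPA (5.31% of all genes tested fell there), iG+P (5.36%) and iG+A (4.95%), 5 in iGfi1 (2.67%), 4 in iAtoh1 (2.52%) and 1 in iPou4f3 (0.606%). In iP+A 0 of 12 fell by limma (2.58%), with 3 lower at an unadjusted p under 0.05. The median difference of the group was -1.42 to -1.60 in the lines with Gfi1, 0.01 in iAtoh1, -0.05 in iPou4f3 and -0.67 in iP+A.

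Ttr and Apob are also on the list of 10 visceral and definitive endoderm markers, and Rbp4 is known from the same cells. Of the 8 listed genes other than Ttr and Apob, 2 fell in iG+P (5.36% of all genes tested fell there) and 1 each in iGPA (5.31%), iG+A (4.95%), iP+A (2.58%), iAtoh1 (2.52%) and iPou4f3 (0.606%). In iGfi1 (2.67%) limma called 0 with 5 lower at an unadjusted p under 0.05, and none rose in any line. The summed level of these 8 genes was 5706 to 11321 in untreated libraries and 3277 to 11971 in Dox libraries. In iP+A this sum was 8290.4 to 11321 without Dox and 9031 to 11270.2 with Dox. Rbp4, Ttr and Apob gave no call there but had log2 differences of -1.35, -1.06 and -1.05. Of the 9 listed markers of mesenchyme and feeder fibroblasts, such as the collagen gene Col1a1, 7 fell in iGPA (5.31% of all genes tested fell there), 5 in iG+A (4.95%), 4 in iG+P (5.36%), 3 in iAtoh1 (2.52%), 2 in iGfi1 (2.67%), 1 in iP+A (2.58%) and 0 in iPou4f3 by limma (0.606%, with 1 lower there at an unadjusted p under 0.05), while Thy1, also known from neurons, rose in iGPA and iP+A. Their summed level in iGPA was 69960 to 117040 without Dox and 7980 to 10884 with Dox, in iP+A it was 78168 to 109680 and 39182 to 45656, and over all lines it was 49799 to 166410 without Dox and 7185 to 120720 with Dox. Of the 6 primitive blood markers, beside the same shares of all genes, 6 fell in iAtoh1, 6 in iP+A, 5 in iGPA, 5 in iG+A and 2 in iG+P, and limma called 0 in iGfi1 and 0 in iPou4f3 (with 3 higher and 1 lower at an unadjusted p under 0.05, in that order). The study's methods deplete feeder fibroblasts before EBs are formed, and the Dox libraries hold Venus+ sorted cells. The part of any of these cells in the decreases of Rbp4, Ttr, Apob, Lrp2, Lrp1 and Crabp1 was not tested.

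Stra6l, a second receptor for Rbp4 related to Stra6, rose in 5 lines. In iAtoh1 it was at 176 and 62.1 without Dox and 1679 and 770.1 with Dox, a log2 difference of 3.43 (SE 0.46, adjusted p = 3.68e-05). The iG+A libraries were at 54.5 and 89.6 without Dox and 415 and 680.3 with Dox (2.91, SE 0.46, adjusted p = 6.66e-05). The lines without a call were iGfi1, at 58.1 and 43.98 without Dox and 67.6 and 95.8 with Dox, and iPou4f3, at 36.2 and 49.1 without Dox and 53.3 and 42.2 with Dox, so the lines past the threshold were those with Atoh1 and iG+P. Crabp1, the other cellular retinoic acid-binding protein, fell in 5 lines, to 42.98 and 33.3 from 1045 and 445 in iGPA (-4.14, SE 0.41, adjusted p = 2.59e-07). The iAtoh1 libraries were at 888 and 1343 without Dox and 1051 and 1016 with Dox, a difference of -0.08 (SE 0.41, adjusted p = 0.914). Bco2, a carotenoid-cleaving enzyme, rose in iPou4f3 and iP+A and fell in iGfi1, iG+A and iG+P, so that its upward calls were in lines without Gfi1 and its downward calls in lines with it. In iP+A it was at 31.5 and 35.9 without Dox and 246 and 249 with Dox (2.84, SE 0.47, adjusted p = 0.000227), and in iG+P at 72.6 and 35.1 without Dox and 13.7 and 9.76 with Dox (-2.03, SE 0.47, adjusted p = 0.00256).

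Genes known to respond to retinoic acid moved in both directions, with 16 tested. Upward calls numbered 4 in iGPA (8.65% of all genes tested rose there), 4 in iG+A (7.35%), 3 in iGfi1 (2.15%), 2 in iG+P (5.16%), 1 in iAtoh1 (2.89%) and 1 in iP+A (4.7%), and downward calls 4 in iG+P (5.36%), 2 in iGPA (5.31%), 1 in iGfi1 (2.67%) and 1 in iAtoh1 (2.52%). In iPou4f3 limma called 0 of 16, with 2 at an unadjusted p under 0.05. Tgm2, a transglutaminase induced by retinoic acid in many cells, rose in the 4 lines with Gfi1, in iG+A from 2093 and 1947 to 10760.5 and 12005 (2.49, SE 0.17, adjusted p = 4.36e-09). In iAtoh1 it was at 1314 and 1318 without Dox and 625 and 732 with Dox (-0.96, SE 0.17, adjusted p = 0.000553). Nr2f1, an orphan nuclear receptor, rose in iGfi1, iG+A, iP+A and iGPA, and by most in iG+A, by 2.83 (SE 0.41, adjusted p = 2.91e-05). Its paralogue Nr2f2 rose in iAtoh1, iG+A and iGPA, and by most in iG+A, by 2.29 (SE 0.23, adjusted p = 5.24e-07). Among 13 receptors and cofactors, Rxrg rose in iAtoh1 (3.05, SE 0.71, adjusted p = 0.00452) and iP+A (2.52, SE 0.71, adjusted p = 0.0142) and Ncoa1 in iAtoh1 (1.58, SE 0.12, adjusted p = 9.56e-08), with no other call.

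**Figure D5:**
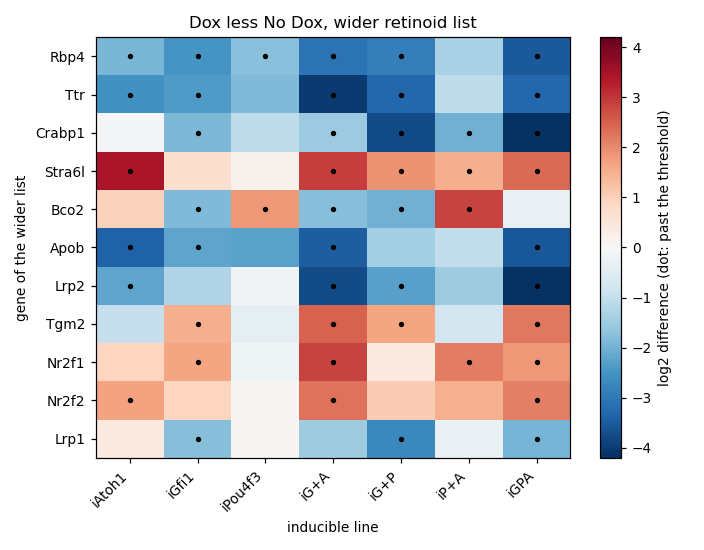
Genes of the wider list that passed the threshold in at least 3 lines (11 are shown), by line, with the log2 difference between Dox and No Dox as colour (red for higher with Dox, blue for lower) and a dot for each value past the threshold. Rbp4 is blue in all lines with 6 dots, Stra6l is red with 5, and Bco2 changes colour between lines.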

How the data were processed

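Messenger RNA of Dox-treated, Venus+ sorted cells and of untreated EBs was sequenced by the authors on an Illumina HiSeq, trimmed with cutadapt and pseudo-aligned with Kallisto against the mm9 knownGene transcripts of UCSC; gene values came from tximport and were normalized with DESeq2, with versions not given in the sources used here. The authors deposited log2(normalized count + 1), so 2 to the power of a value, less 1, returned the normalized count. Of 19421 genes by Entrez ID, 19314 were named from a RefSeq gene table. Whole reads could not be recovered: only 70.6% to 79.4% of the values of 20 or less were whole multiples of the library's step, with a tolerance of 0.05 steps, so no count test was run, and intervals carry the spread between replicates.

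A filter of 10 or more normalized counts in 2 or more libraries left 16837 genes. One limma model (version 3.58.1, R 4.3.3) held all 14 groups, with eBayes and its trend and 14 residual degrees of freedom, p-values were adjusted by Benjamini-Hochberg over those genes, separately for each contrast, and the method was tested on simulated data. The difference on adding a factor is the Dox effect of the line with it less that of the line without it. Samples were grouped by their labels. The members and lists were chosen with earlier results of these data known. All 9 members were named, with up to 12 genes of the wider list past the threshold in at least 3 lines and the 5 genes most like Stra6, while Rxrg, Ncoa1 and the mesoderm markers were named after their values were seen. Of these, 1 gene of the wider list is not reported here. Gene positions are those of GENCODE M1 on NCBIM37.

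Whether equal replicate numbers in the titles mean the same clone is not stated in the sources used here, so the main fit left the libraries unpaired. Over 16837 genes, the deviations of same-numbered Dox and No Dox libraries from their group means correlated by 0.103 (iG+P) to 0.246 (iP+A), above 0.1 in all 7 lines. A fit that paired them, with the replicate as a block within each line, was therefore run as an alternative, and it changed some calls, as given above and below. Other alternatives were other pseudocounts, filters, scalings, control groups and thresholds and leaving out each library.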

Additional observations from a re-analysis of the deposited data

Results flagged for a closer look

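The results below were singled out because the Dox effect of a gene differed between lines that differ by 1 factor, by limma's test of the difference itself (n = 2 libraries per group). All values are differences between log2 Dox differences, and lines are shared between them. With Dox, Pou4f3 itself was lower in iPou4f3 than in iG+P and iP+A, so differences from iPou4f3 also hold that difference in level.

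From iAtoh1 to iG+A, the Dox effect was larger for Cyp26b1 by 4.45 (adjusted p = 5.79e-06), for Aldh1a3 by 4.41 (adjusted p = 2.88e-05), for Aldh1a2 by 3.67 (adjusted p = 0.045), for Cyp26a1 by 3.03 (adjusted p = 0.0396) and for Cyp26c1 by 2.28 (adjusted p = 0.038). Over 37 alternatives each, Cyp26b1 and Aldh1a3 kept their calls, while Aldh1a2 lost its call in 17, Cyp26a1 in 6 and Cyp26c1 in 4. From iP+A to iGPA, the effect was larger for Aldh1a2 by 4.49 (adjusted p = 0.0138) and for Cyp26c1 by 2.65 (adjusted p = 0.0153). Aldh1a2 lost this call only without iP+A No Dox replicate 2 (3.62), and Cyp26c1 without that library (2.26), iP+A Dox replicate 1 (2.13) or iGPA No Dox replicate 2 (2.24). From iPou4f3 to iG+P, the effect was larger for Crabp2 by 1.603 (adjusted p = 0.00453) and the difference for Cyp26b1 was -2.76 (adjusted p = 0.000437), which kept its call in every alternative.

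On adding Atoh1, the difference between iG+A and iGfi1 was 3.45 for Cyp26b1 (adjusted p = 6.06e-05) and 1.78 for Aldh1a3 (adjusted p = 0.0213), and that between iP+A and iPou4f3 was -2.20 for Cyp26b1 (adjusted p = 0.0109). On adding Pou4f3, the difference between iP+A and iAtoh1 was 1.84 for Cyp26b1 (adjusted p = 0.0232), and that between iGPA and iG+A was -3.35 for Aldh1a3 (adjusted p = 0.000955) and -2.07 for Cyp26b1 (adjusted p = 0.0129). The last of these was -1.26 without iGPA Dox replicate 1, where Cyp26b1 was at 213 normalized counts against 663 in replicate 2, and it also lost its call without iG+A No Dox replicate 1 (-1.91), iG+A Dox replicate 2 (-1.89) or iGPA No Dox replicate 1 (-1.96). The 1.84 for Cyp26b1 lost its call in 6 of 37 alternatives, each without 1 library of iAtoh1 or iP+A, with values of 1.72 to 1.96.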

How the results depend on the processing

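Across 692 recomputed counts of calls, 630 stayed within 1.5 times the reported count. Among 2843 recomputed values of single genes, 2707 kept their direction and side of the threshold, 71 lost a call, 44 gained one and 21 turned sign, none of which was past the threshold in either fit. With 2 libraries per group, leaving one out leaves a group with 1 library that is assumed to vary like the others, and genes near the floor, Aldh1a1 above all, cannot carry a fold. Quantile and 75th percentile scaling moved the median of all genes by less than 0.1 in every line.

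The number of the 8 members past the threshold became 1 in iAtoh1 with a pseudocount of 5, and 1 in iP+A and 1 for adding Pou4f3 with quantile normalization. It became 5 for adding Gfi1 and 1 for adding Pou4f3 with rescaling by the 75th percentile. With the replicate block it was 2 in iGfi1 and 1 in iP+A, and in the other lines and averages the block left the count within 1.5 times. With all untreated libraries as 1 control group it was 1 in iAtoh1, 2 in iGfi1, 2 in iP+A and 2 in iGPA, and 4 genes of the wider list passed in iPou4f3. With only the groups compared in the fit it was 0 in iAtoh1, and of the wider list 7 passed in iAtoh1, 0 in iPou4f3 and 4 in iP+A. With a log2 difference of at least 1 it was 2 in iGfi1, 4 in iGPA and 1 for adding Pou4f3, and 12 genes of the wider list passed in iP+A. The causes were not tested.

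Leaving out each library in turn gave 0 to 3 members in iAtoh1, 1 to 3 in iG+P, 0 to 1 in iP+A, 1 to 4 in iGPA, 2 to 5 for adding Gfi1, 0 to 1 for adding Atoh1, 0 to 1 for adding Pou4f3 and 0 to 2 between untreated lines, with no change in iGfi1, iPou4f3 and iG+A. It gave 5 to 11 genes of the wider list in iAtoh1, 4 to 11 in iGfi1, 0 to 3 in iPou4f3, 12 to 15 in iG+A, 11 to 16 in iG+P, 4 to 8 in iP+A and 14 to 16 in iGPA.

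The uncalled values that turned sign were, with quantile normalization, Aldh1a3 in iGPA (-0.18), and with all untreated libraries as 1 control group Aldh1a2 in iAtoh1 (0.053), Aldh1a3 in iGPA (-0.0605), Cyp26a1 in iG+A (-0.25) and iGPA (-0.17), Cyp26b1 in iGfi1 (-0.14) and Cyp26c1 in iG+P (0.40). Without 1 library, the range was -1.15 to 1.01 for Aldh1a2 in iAtoh1, -0.67 to 0.72 for Aldh1a2 in iPou4f3, -1.75 to 0.00080 for Aldh1a2 in iP+A, -0.15 to 0.73 for Aldh1a1 in iPou4f3, -0.022 to 1.89 for Aldh1a1 in iG+A, -1.13 to 0.065 for Aldh1a1 in iP+A, -0.054 to 0.30 for Aldh1a3 in iGPA, -0.29 to 1.67 for Cyp26a1 in iG+A, -0.079 to 0.16 for Cyp26b1 in iGfi1 and -0.76 to 0.14 for Cyp26c1 in iPou4f3.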
